A study of Saccharomyces cerevisiae with 17 samples.

Results

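The small ribosomal subunit of budding yeast, Saccharomyces cerevisiae, is built from 33 proteins encoded by 57 genes, and the mRNA of all 57 was followed here. The set holds the RPS genes from RPS0A to RPS31 and ASC1 and was chosen by gene name. No measured value entered that rule, but the choice was made with earlier results of these data known. All 57 were among the 7126 genes of the count table and all 57 passed the filter on low counts, as did 6195 genes in total. RefSeq locus tags matched the identifiers of all 57. In 24 cases a pair of genes, A and B, encodes the same or nearly the same protein, and 9 proteins have a single gene.

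Poly(A)-selected RNA was sequenced from 1 strain, BY25598, of mating type a, in which XRN1 carries an auxin-inducible degron and OsTIR1, the plant auxin receptor, is expressed from the ADH1 promoter. All 6 groups share both. In the arm called Xrn1-AID (written AID), 500 µM auxin was given for 30 min, after which the submitters state that less than 10% of the Xrn1 protein was left. The arm called Xrn1-WT (WT) had the same degron strain without auxin, so auxin itself and loss of Xrn1 cannot be told apart. Each arm was sampled without salt (0 min) and 10 and 30 min after exposure to 0.4 M NaCl. There were 3 libraries per group and 2 for AID at 30 min.

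A 40S subunit carries the decoding site and the channel through which mRNA enters and leaves. Yeast makes its protein components in near-equal amounts, and their genes are among the most strongly transcribed in growing cells, mostly under the DNA-binding protein Rap1 with Fhl1, Ifh1 and Sfp1. Osmotic stress represses these genes for a time as part of the general stress response. Xrn1 is the main cytoplasmic exonuclease that degrades decapped mRNA from its 5′ end, and it has also been linked to transcription.

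The windows upstream of 4 of these genes are shown as examples, picked after their values were seen: RPS7B and RPS9A fell after 10 min of salt, as described below, and RPS7A and RPS11B did not pass the test. Each window runs from 500 to 201 bases before the start codon, read 5′ to 3′ on the gene's strand from the RefSeq R64 genome, the same assembly as sacCer3. Capitals mark matches to the Rap1 motif ACCCNNACA on either strand.
RPS7A (chrXV:505294-505593, plus strand): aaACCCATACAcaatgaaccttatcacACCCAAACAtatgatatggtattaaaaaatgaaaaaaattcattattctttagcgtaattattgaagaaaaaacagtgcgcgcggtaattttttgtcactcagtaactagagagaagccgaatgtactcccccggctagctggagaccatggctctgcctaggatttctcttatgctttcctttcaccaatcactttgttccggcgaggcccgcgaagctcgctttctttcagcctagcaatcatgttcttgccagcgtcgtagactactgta
RPS7B (chrXIV:444516-444815, minus strand): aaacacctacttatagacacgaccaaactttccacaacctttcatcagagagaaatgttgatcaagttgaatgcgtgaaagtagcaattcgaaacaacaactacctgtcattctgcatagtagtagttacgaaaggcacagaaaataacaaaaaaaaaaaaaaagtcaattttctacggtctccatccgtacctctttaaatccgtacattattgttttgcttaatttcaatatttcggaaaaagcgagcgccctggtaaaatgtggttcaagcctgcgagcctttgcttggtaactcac
RPS9A (chrXVI:404450-404749, plus strand): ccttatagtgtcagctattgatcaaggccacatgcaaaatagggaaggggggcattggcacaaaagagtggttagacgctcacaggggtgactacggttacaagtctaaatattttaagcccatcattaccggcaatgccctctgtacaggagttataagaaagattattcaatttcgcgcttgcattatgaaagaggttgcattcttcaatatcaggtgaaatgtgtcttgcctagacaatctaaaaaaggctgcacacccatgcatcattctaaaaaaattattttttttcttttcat
RPS11B (chrII:332331-332630, plus strand): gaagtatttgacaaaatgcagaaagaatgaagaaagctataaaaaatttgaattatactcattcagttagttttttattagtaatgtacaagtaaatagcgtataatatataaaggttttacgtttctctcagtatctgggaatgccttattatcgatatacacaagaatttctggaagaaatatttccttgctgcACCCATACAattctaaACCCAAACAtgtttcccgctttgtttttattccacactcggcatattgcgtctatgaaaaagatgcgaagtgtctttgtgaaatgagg

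The Rap1 motif was present in 17 of 57 member windows (29.82%) and in 3.52% of the windows of all 6000 protein-coding genes with a complete window. RPS7A, RPS11B, RPS16A and RPS16B held 2 matches each, and RPS7B, RPS9A and RPS27A, the 3 members that fell at 10 min, held no exact match. The windows of these 3 do hold near matches: atccgtaca in RPS7B, acccatgca in RPS9A and acccgtgca in RPS27A. Near matches were not counted in any window, so the lack of an exact match does not mean that Rap1 sites are absent. Of the 40 members without a match, 37 were not called at 10 min in WT. The stress response element AGGGG, searched on both strands, occurred in 9 member windows (15.79%, against 22.38% of all), 2 times in that of RPS9A. No match to one motif overlapped a match to the other in the member windows (0 overlaps). The motif of Abf1, another general factor, was found in 7 member windows (12.28%, against 13.13%). A match is a match of letters, not a bound site.

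Library depth ranged from 13.9 to 30.4 M counts, and levels are given in counts per M counts (CPM) after TMM scaling. WT 0 replicate 3 and WT 10 replicate 2 stood apart from the other libraries of their groups. In WT 0 replicate 3, 50 of 57 members were above the mean of the other two libraries, by a median of 0.61 on the log2 scale, and in WT 10 replicate 2 all 57 were, by 0.68. In WT 30 replicate 2, 56 members were below the other two, by a median of -0.43, and the 2 AID libraries at 30 min differed from each other by a median of 0.39, with 53 members higher in replicate 1. For the first 2 libraries the medians over all tested genes were -0.04 and -0.07. The mating type a markers MFA1, MFA2, STE2, STE6 and BAR1 were present in every library, the lowest value being 12.6 CPM for MFA1, and no alpha marker (MF(ALPHA)1, MF(ALPHA)2, STE3) exceeded 1.03 CPM. XRN1 mRNA stood between 12.2 and 38.5 CPM in WT and between 48.9 and 64.7 CPM in AID at 0 min, which does not check the arms, since auxin acts on the protein.

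Before salt, in WT at 0 min, the members differed 40.6-fold in level per length of coding region, from 718 to 29168 CPM per kb with a median of 4495. The 6 highest were RPS31, which encodes ubiquitin fused to a ribosomal protein, at 29168 ± 20563 CPM per kb (mean ± SD, n = 3 here and below), RPS12 at 14166 ± 7785, RPS26A at 11239 ± 7023, RPS27B at 10521 ± 5597, RPS25A at 9445 ± 4989.7 and RPS14A at 8837 ± 5259.8. The SD of each was large, and WT 0 replicate 3 was the highest library for all 6. The 6 lowest were RPS27A at 1894 ± 321, RPS14B at 1782 ± 865, RPS22B at 1342 ± 465, RPS7B at 1279 ± 404, RPS9A at 992 ± 160.3 and RPS28B at 718 ± 228 CPM per kb. Neighbours in either list differed by less than the SD of the higher one, except that RPS9A and RPS28B at the low end differed by more than its SD. Each of the 6 lowest is the less abundant copy of a pair.

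Summed over the 57 genes, the small-subunit mRNAs took 12.8, 12.5 and 14.9% of the counts of the WT libraries without salt. After 10 min of salt they took 10.3, 12.8 and 9.79%, and after 30 min 3.63, 3.12 and 3.79%. In AID the share was 10.3, 11.3 and 10.5% without salt. After 10 min of salt the AID libraries held 8.22, 8.24 and 8.27%, and after 30 min they held 4.99 and 4.22%. The libraries at 30 min lay below all others of their arm, and the 2 AID libraries at 30 min lay above the 3 of WT. As ratios of group means, the share at 30 min was 0.262 ± 0.0362 of that at 0 min in WT and 0.431 ± 0.0555 in AID (± SD propagated from the libraries). At 10 min it was 0.820 ± 0.145 in WT, where the libraries overlapped with those at 0 min, and 0.771 ± 0.0393 in AID, where all 3 lay below all 3 at 0 min. No test was made of the share. Fewer transcripts per cell and a larger amount of other RNA cannot be told apart in such shares.

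**Figure D1:**
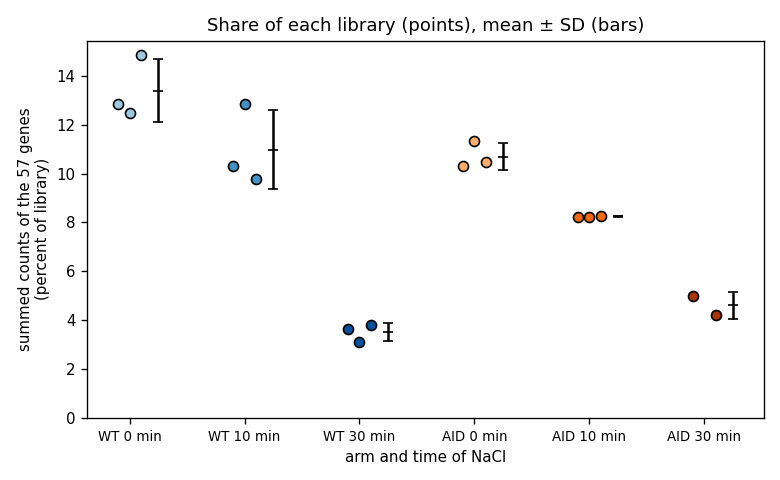
Summed counts of the 57 small-subunit genes as a percent of each library's counts (y axis) for the 6 groups (x axis); points are libraries and bars beside them the mean ± SD. The WT libraries at 30 min sit between 3.12% and 3.79% and the AID libraries at 30 min between 4.22% and 4.99%.

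After 30 min of salt the whole set fell in WT. All 57 members were lower than at 0 min at an adjusted p under 0.05 (edgeR's quasi-likelihood test with Benjamini-Hochberg adjustment over 6195 genes, used throughout), where 27.5% of all tested genes were called lower. The median log2 fold change was -2.34, against 0.01 over all genes, with members between -3.07 and -1.52. For every one of the 57, the 3 libraries at 30 min lay below the 3 at 0 min, as they did for 28.8% of all tested genes. Against 10 min, 56 members fell (background 25.7%), with a median of -2.54. RPS9A did not, and RPS27A and RPS7B had already fallen in part by 10 min, as described below.

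The single-copy genes show the size of the fall without the uncertainty of paralogs. RPS31 (YLR167W, chromosome XII, 498947 to 499405) stood at 8504, 7392 and 24268 CPM in WT at 0 min and at 2043, 1342 and 1778 CPM at 30 min. All libraries at 30 min were lower, and WT 0 replicate 3 was far above the other two. Its log2 fold change was -2.96 ± 0.45, adjusted p = 2.6e-05, and -2.19 without WT 0 replicate 3. ASC1 (YMR116C, chromosome XIII, 499456 to 500688), the yeast homologue of the scaffold protein RACK1 on the head of the subunit, went from 3152, 2873 and 7337 CPM to 769, 419 and 670.3 CPM, a change of -2.85 ± 0.36, adjusted p = 3.37e-06. The groups did not overlap. ASC1 has the snoRNA SNR24 inside its span. RPS3 (YNL178W, chromosome XIV, 302680 to 303402), at the mRNA entry channel, went from 4013, 3881 and 7979 to 809, 687 and 844 CPM (-2.76 ± 0.34, adjusted p = 2.9e-06).

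Further single-copy genes fell as well. RPS12, a protein of the beak of the subunit, changed by -2.65 ± 0.39, adjusted p = 2.1e-05. RPS2, near the entry channel and involved in decoding accuracy, changed by -2.45 ± 0.26, adjusted p = 4.24e-07. RPS13 changed by -2.28 ± 0.36, adjusted p = 3.75e-05. RPS20 in the head, one of the sites of ubiquitin attachment on collided ribosomes, changed by -2.20 ± 0.19, adjusted p = 4.21e-08, and RPS15 by -1.99 ± 0.33, adjusted p = 6.32e-05.

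The largest fall of the set was that of RPS26B (YER131W, chromosome V, 423952 to 424311). Rps26 lines the mRNA exit channel. Its level was 1888, 1619.5 and 2481 CPM at 0 min and 236, 181 and 296 CPM at 30 min, a change of -3.07 ± 0.27, adjusted p = 4.85e-08. RPS31 and ASC1, above, came next, and then RPS29A, another small protein of the head, with -2.83 ± 0.37, adjusted p = 6.5e-06. The smallest falls were those of RPS9A (-1.52 ± 0.22, adjusted p = 1.67e-05), RPS30A (-1.61 ± 0.23, adjusted p = 1.25e-05), RPS11B (-1.67 ± 0.24, adjusted p = 1.46e-05) and RPS14A (-1.87 ± 0.43, adjusted p = 0.00143). Without WT 0 replicate 3, RPS14A and RPS26A, like RPS31, moved by over 1.5-fold, to -1.27 and -1.58, and all 57 calls were kept.

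**Figure D2:**
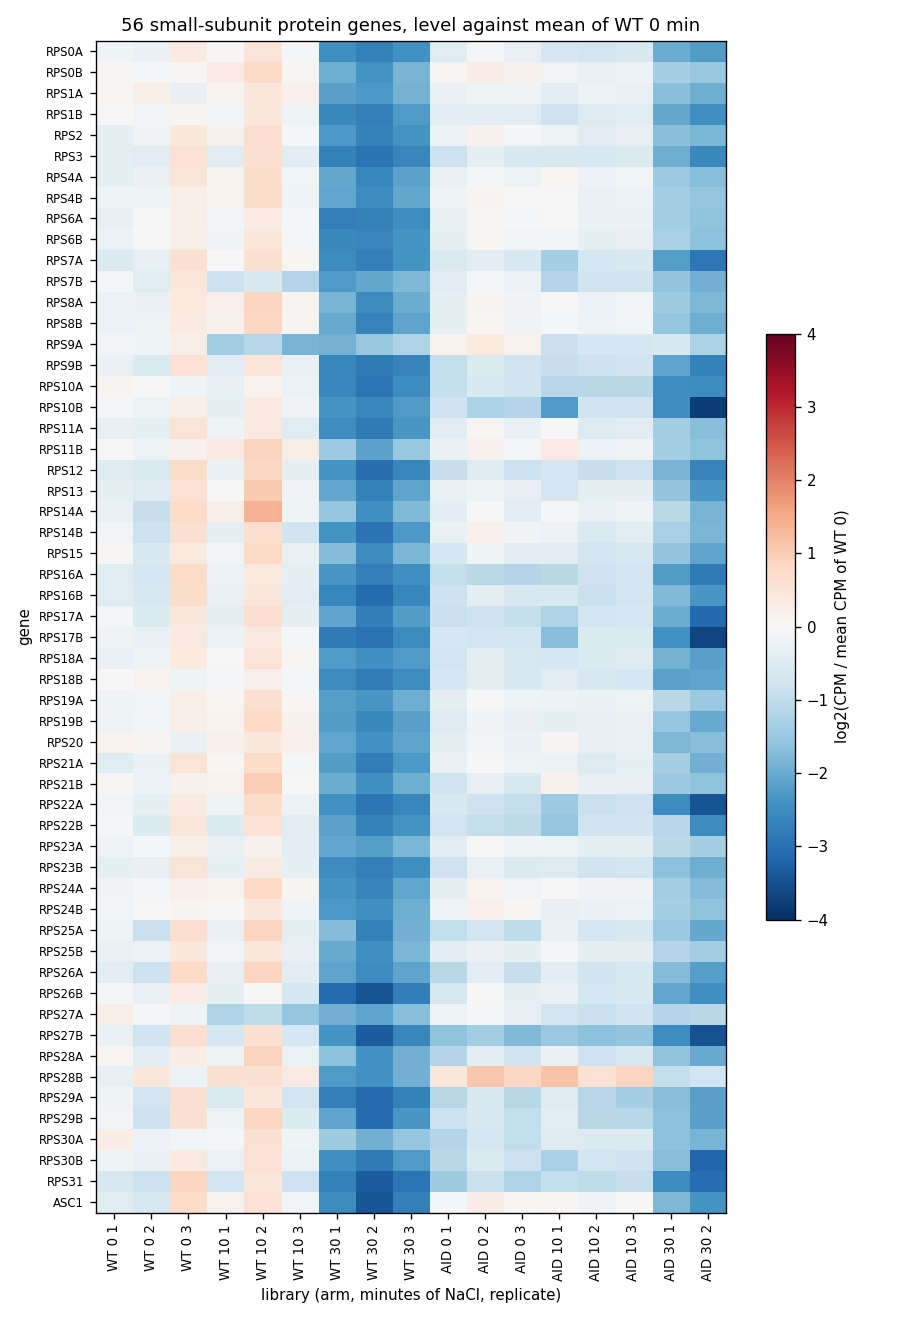
Level of 56 of the 57 genes (rows) in each of the 17 libraries (columns), as log2 of CPM over the gene's mean CPM in WT at 0 min; blue is lower and red higher. The 5 libraries at 30 min form the blue block, and RPS9A, RPS27A and RPS7B are already low in the libraries at 10 min of WT. RPS28B is red in AID at 0 and 10 min and also in WT at 10 min.

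In the arm given auxin the set fell after 30 min of salt as well. In AID, 53 of 57 members were lower at 30 than at 0 min (background 26.6%), with a median of -1.46, and 52 were lower than at 10 min (background 22.1%), with a median of -1.40. The 4 that did not pass against 0 min were RPS14A (-1.13 ± 0.48, adjusted p = 0.0598), RPS22B (-0.77 ± 0.41, adjusted p = 0.121), RPS25A (-0.83 ± 0.43, adjusted p = 0.117) and RPS29B (-1.05 ± 0.44, adjusted p = 0.0544). For all 57 the 2 libraries at 30 min lay below the 3 at 0 min, against 34.9% of all tested genes. RPS17B went from 739.8, 688 and 700.1 to 220.2 and 91.7 CPM (-2.19 ± 0.39, adjusted p = 0.000178), and to -2.95 without AID 30 replicate 1. ASC1 (-2.18 ± 0.40, adjusted p = 0.00026), RPS22A (-2.13 ± 0.36, adjusted p = 0.000114) and RPS7A (-1.96 ± 0.36, adjusted p = 0.00024) fell by like amounts, and these 4 had the lowest values. RPS31 went from 5011, 7253 and 5745 to 2348 and 1631 CPM (-1.59 ± 0.49, adjusted p = 0.0119), a call lost without AID 30 replicate 2. The count rests on 2 libraries at 30 min: without AID 30 replicate 2, 39 members were called against 0 min and 33 against 10 min.

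At 10 min few members were called. In WT, 3 members had fallen, where 24.6% of all genes had, and 0 had risen (background 19.7%), and the median was 0.15. In AID, 3 had fallen (background 16.6%) and 0 had risen (background 19.0%), with a median of -0.07. The 3 called members were RPS9A, RPS27A and RPS7B in each arm (3 shared), and these comparisons use different libraries. All 3 are the less abundant copy of their pair. Scaling by library size alone put the median of all genes at -0.50 in WT and -0.36 in AID, and then 16 and 23 members were called lower, with medians of -0.28 and -0.39, so the sign of the WT median depends on the scaling.

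RPS9A (YPL081W, chromosome XVI, 404950 to 406044) encodes a protein that helps set decoding accuracy. In WT it stood at 543, 526 and 699 CPM at 0 min, at 227, 266 and 161 CPM at 10 min and at 159.8, 205 and 251 CPM at 30 min. The libraries at 10 and 30 min overlapped with each other and lay below those at 0 min. The change at 10 min was -1.44 ± 0.22, adjusted p = 6.62e-05, and that from 10 to 30 min was -0.09 ± 0.22, adjusted p = 0.75, the only member not called in that comparison. With library size alone as the scaling, which put the median of all genes at 0.94 in that comparison, RPS9A stood at 0.81, so its direction there depends on the scaling. In AID its levels were 643, 775 and 653, then 318, 364 and 359, then 383 and 245 CPM, with a change of -0.99 ± 0.22, adjusted p = 0.00192 at 10 min.

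RPS27A (YKL156W, chromosome XI, 158613 to 159212) had 562, 445 and 408 CPM in WT at 0 min and 207, 235 and 161 CPM at 10 min, with no overlap, a change of -1.23 ± 0.16, adjusted p = 1.62e-05. In AID the change was -0.61 ± 0.16, adjusted p = 0.00818. RPS7B (YNL096C, chromosome XIV, 443398 to 444315), one of the genes for a protein needed in subunit assembly, had 689.6, 525 and 983 CPM at 0 min and 403, 478 and 328 at 10 min, a change of -0.86 ± 0.22, adjusted p = 0.00489, and this call was lost in the fit of the compared groups alone and with WT 0 replicates 1 and 3 both left out. In AID it changed by -0.66 ± 0.22, adjusted p = 0.0281, and this call was lost without AID 0 replicate 2 or 3 or AID 10 replicate 1 (highest adjusted p 0.114). At the other end, RPS14A (0.64 ± 0.42, adjusted p = 0.234), RPS11B (0.52 ± 0.23, adjusted p = 0.0821) and RPS28B (0.52 ± 0.22, adjusted p = 0.0679) had the highest values in WT and did not pass. Without WT 0 replicate 3, 5 members were called higher beside 3 lower, and without WT 10 replicate 3 there were 2 higher beside 3 lower. In AID the highest value was that of RPS21B (0.44 ± 0.25, adjusted p = 0.19).

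**Figure D3:**
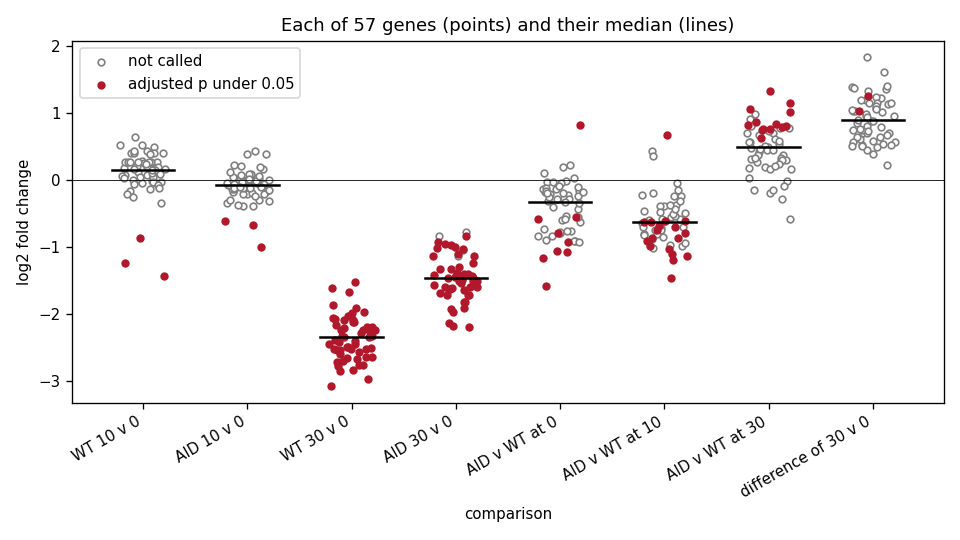
Log2 fold change (y axis) of each of the 57 genes in 8 comparisons (x axis); filled points have an adjusted p under 0.05 and lines are medians. The medians at 30 min against 0 min are -2.34 in WT and -1.46 in AID, and 3 genes stand apart at 10 min.

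Between the arms, the median of the members was lower in AID before salt and after 10 min and higher after 30 min. At 0 min, 8 members were lower in AID (background 16.4%) and 1 was higher (background 16.2%), with a median of -0.32. The share lower was below that of all genes. The lowest values were those of RPS27B (-1.58 ± 0.41, adjusted p = 0.00851), RPS31 (-1.16 ± 0.42, adjusted p = 0.0455), RPS10B (-1.07 ± 0.35, adjusted p = 0.029) and RPS16A (-1.05 ± 0.31, adjusted p = 0.0183). The calls of RPS31, RPS10B, RPS16A and RPS18A were lost without WT 0 replicate 3, RPS31 then standing at -0.41, and also without AID 0 replicate 2 or 3. RPS10B lost its call without WT 0 replicate 1 too, and RPS31 and RPS18A without most other single libraries. RPS10A (YOR293W, chromosome XV, 867098 to 867852) had 1671, 1559.5 and 1395 CPM in WT and 804, 1006 and 878 CPM in AID, with no overlap (-0.78 ± 0.17, adjusted p = 0.00256). The count of called members ranged from 4 without AID 0 replicate 2 or 3 to 19 without WT 0 replicate 2, and was 5 without WT 0 replicate 3 and 18 without WT 10 replicate 2.

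The one member higher in AID was RPS28B (YLR264W, chromosome XII, 673131 to 673334). Rps28 protein is known in yeast to bind its own RPS28B mRNA and to bring about its decapping through Edc3. RPS28B stood at 116, 199.98 and 123 CPM in WT at 0 min and at 203, 312 and 258 CPM in AID. The AID libraries lay above those of WT, though the lowest AID value was close to WT replicate 2. The difference was 0.81 ± 0.22, adjusted p = 0.0116, and the call was lost without WT 0 replicate 1 or AID 0 replicate 2 (highest adjusted p 0.0577), in the fit of the compared groups alone and with the correction for GC content. At 10 min the levels were 222, 224 and 184 CPM in WT and 326, 219.6 and 264 CPM in AID (0.36 ± 0.22, adjusted p = 0.221, not called). At 30 min they were 30.3, 27.2 and 38.6 CPM and 75.4 and 85.2 CPM, a difference of 1.33 ± 0.25, adjusted p = 0.00194, the highest of the set. The arms did not overlap at 30 min. Its partner RPS28A had 1619, 1139.6 and 1912 CPM in WT and 689.7, 1143 and 898 in AID at 0 min, and did not pass (-0.77 ± 0.32, adjusted p = 0.0709).

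At 10 min, 17 members were lower in AID (background 10.9%) and 1 was higher (background 17.3%), with a median of -0.63. RPS27B (-1.46 ± 0.41, adjusted p = 0.0156), RPS22A (-1.20 ± 0.30, adjusted p = 0.00945), RPS10B (-1.14 ± 0.35, adjusted p = 0.0257) and RPS7A (-1.10 ± 0.30, adjusted p = 0.015) were lowest. This count rested on single libraries: 4 members were called without WT 10 replicate 2 and 4 without AID 10 replicate 1, 11 and 9 without AID 10 replicates 2 and 3, and 30 without WT 0 replicate 3. RPS10A, with 1232, 1683 and 1309 CPM in WT and 698, 712 and 717 in AID, kept its call when any library was left out (-0.99 ± 0.17, adjusted p = 0.000792, highest adjusted p 0.00569). The 4 lowest lost their calls without WT 10 replicate 2, and RPS22A, RPS10B and RPS7A also without AID 10 replicate 1. The member that was higher was RPS9A (0.67 ± 0.22, adjusted p = 0.0308), and its call was lost without WT 10 replicate 1 or 3 or any AID library at 10 min, and with DESeq2 size factors.

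At 30 min, 13 members were higher in AID (background 11.5%) and 0 lower (background 11.0%), with a median of 0.49. After RPS28B came RPS6A (1.15 ± 0.22, adjusted p = 0.00237) and RPS6B (1.06 ± 0.23, adjusted p = 0.00434), which encode the same protein, a target of TOR signalling, and RPS11A (1.01 ± 0.31, adjusted p = 0.0279). RPS6A had 412, 416 and 491 CPM in WT and 1051 and 895 CPM in AID, with no overlap. RPS6A and RPS6B differ in 6 bases of coding sequence, and 27.95% of their 50-base windows are unique in the genome, so their counts cannot be taken as independent. The call of RPS11A was lost without WT 30 replicate 1 or 2 or either AID library at 30 min. The lowest value was that of RPS10B (-0.58 ± 0.40, adjusted p = 0.317, not called). The count ranged from 4 without AID 30 replicate 1 to 21 without WT 0 replicate 3, and was 7 and 6 without WT 30 replicates 1 and 2 and 6 without AID 30 replicate 2.

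The arms' responses to salt were compared directly by the difference of their fold changes. At 30 min all 57 differences were positive, the response of AID being the smaller fall, with a median of 0.89 against -0.01 over all genes. Short genes in general had positive differences: the 1073 genes with a coding region under 600 bases had a median of 0.43 (rho with coding length -0.34 over 5768 genes). Of the members, 43 are that short, with a median of 0.98, and the other 14 had 0.70. With the correction for GC content and coding length the median of all 57 was 0.57. Individually 2 passed (background 1.00%), RPS6A (1.25 ± 0.30, adjusted p = 0.0473) and RPS18B (1.03 ± 0.24, adjusted p = 0.0472). Leaving out 1 library gave 0 called in 12 of 17 fits, 1 without WT 0 replicate 3, 2 without WT 10 replicate 3 or AID 0 replicate 2, 3 without WT 0 replicate 2 and 9 without WT 10 replicate 2, and the Wald test of DESeq2 called 11. The largest difference, that of RPS29A, did not pass (1.83 ± 0.52, adjusted p = 0.0864). At 10 min 0 differences passed by edgeR (background 0.775%), 2 had an unadjusted p under 0.05, and 1 was called by DESeq2; the median was -0.19.

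Within the 24 pairs, the balance between the copies was tested for all 493 paralog pairs of the genome that passed the filter. The less abundant copy held 9.23% to 49.2% of a pair's counts in WT at 0 min, with a median of 37.8%. At 10 against 0 min, averaged over the arms, 3 of 24 pairs shifted, where 44.0% of all pairs did. The RPS9 pair shifted from RPS9A (log2 ratio of A to B -1.16 ± 0.19, adjusted p = 5.92e-06, and 7.19e-06 with limma), the RPS27 pair from RPS27A (-0.87 ± 0.24, adjusted p = 0.00369, and 0.0129 with limma) and the RPS7 pair from RPS7B toward RPS7A (0.73 ± 0.22, adjusted p = 0.00657, and 0.000209 with limma). RPS9A made up 11.2, 13.2 and 8.35% of its pair in WT without salt. After 10 min of salt it made up 5.53, 3.50 and 3.69%, and after 30 min 15.99, 21.9 and 23.6%. In AID the shares were 19.6, 18.0 and 18.2%, then 10.5, 11.4 and 10.8%, then 24.4 and 23.6%. The share was lowest at 10 min and highest at 30 min in each arm.

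At 30 against 0 min, 4 of 24 pairs shifted (background 54.2%). The RPS9 pair moved toward RPS9A (0.83 ± 0.21, adjusted p = 0.00128, and 0.000502 with limma) and kept its call in every alternative run. The RPS22 pair moved toward RPS22B (-0.80 ± 0.31, adjusted p = 0.032, and 1.33e-06 with limma), the RPS26 pair toward RPS26A (0.81 ± 0.33, adjusted p = 0.037, and 0.000226 with limma) and the RPS30 pair toward RPS30A (0.73 ± 0.29, adjusted p = 0.0346, and 0.0024 with limma), and each of these lost its call without some single libraries, as many as 8 for RPS26. RPS22B, which has the snoRNA SNR44 inside its span, held 17.6, 18.0 and 18.1% of its pair in AID at 0 min and 37.9 and 31.1% at 30 min. In WT it held 19.3, 17.4 and 20.1% and 22.4, 21.7 and 21.6%. Whether the arms differ here was not tested.

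Between the arms, averaged over the times, 4 of 24 pairs differed (background 33.5%). With limma 13 of 24 did (background 46.9%), so whether the RPS pairs lay below or above the background depends on the test. The RPS28 pair leaned to RPS28B in AID (-1.31 ± 0.18, adjusted p = 3.23e-06, and 0.000178 with limma), the RPS27 pair to RPS27A (1.41 ± 0.21, adjusted p = 1.36e-05, and 0.000321 with limma), the RPS9 pair to RPS9A (0.94 ± 0.16, adjusted p = 5.82e-05, and 7.16e-05 with limma) and the RPS7 pair to RPS7B (-0.53 ± 0.19, adjusted p = 0.0297, and 0.00154 with limma). In each, averaged over the times, the less abundant copy gained in share and the more abundant copy was lower in AID. The log2 changes of RPS28B and RPS28A were 0.83 and -0.48, and those of RPS27A and RPS27B were 0.33 and -1.08. For RPS9A and RPS9B they were 0.50 and -0.43. RPS7B hardly changed (-0.002), and RPS7A changed by -0.54. At 30 min alone, the libraries of the arms overlapped for each of the more abundant copies, RPS28A, RPS27B, RPS9B and RPS7A. The calls of the first 3 pairs held when any library was left out, and that of RPS7 was lost without any of 4 libraries. RPS28B held 6.68, 14.9 and 6.06% of its pair in WT at 0 min and 22.7, 21.4 and 22.3% in AID. RPS27A held 20.5, 22.9 and 8.90% and 32.7, 30.6 and 33.04%. The arms did not overlap for either.

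**Figure D4:**
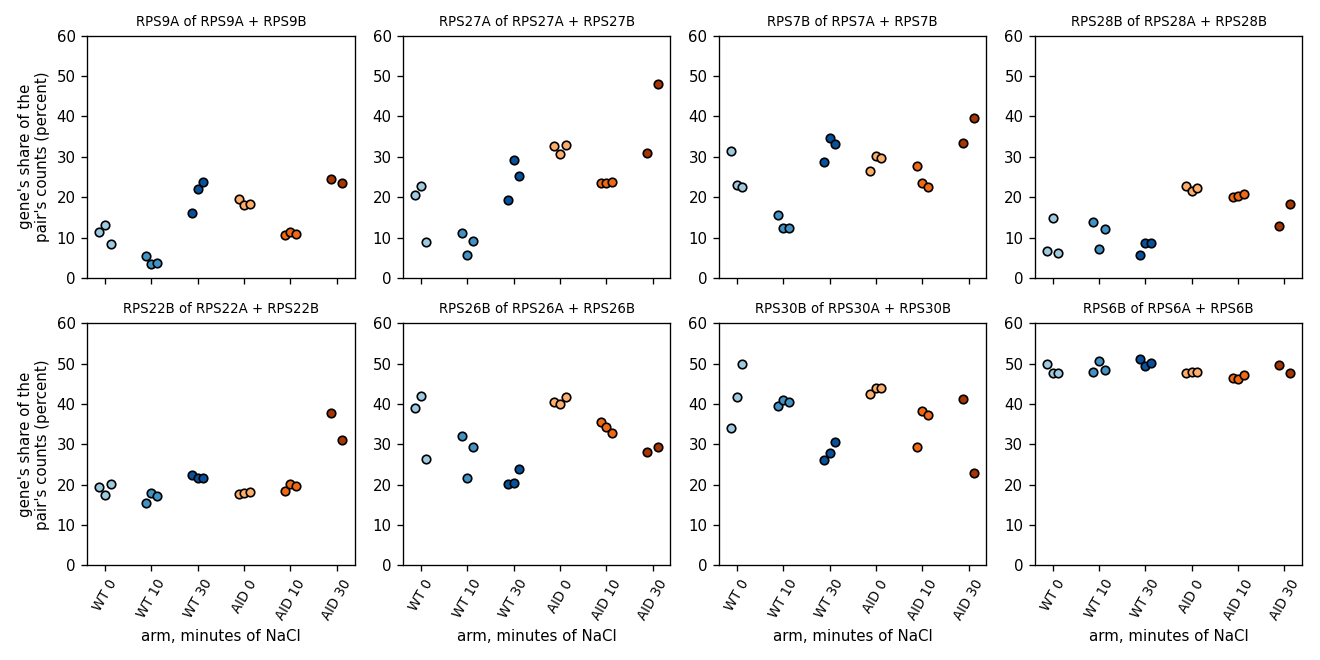
Share of a pair's counts held by the copy that was less abundant in WT at 0 min (y axis, percent) for 8 pairs, one panel each, by group (x axis); points are libraries. RPS9A and RPS7B dip at 10 min in WT, RPS28B is higher in AID at every time, and RPS6B stays between 46.1% and 51.0%.

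Features of the genes that did not enter the choice of members were set beside the changes, as descriptions over 57 genes that share libraries. The 37 members with an intron in the coding region had a median change of -2.39 at 30 min in WT and the 20 without had -2.24. In AID these were -1.43 and -1.54. The 17 members with a Rap1 match in the window had -2.45 and the 40 without -2.34 in WT. Coding length went with the difference between the arms at 0 min (Spearman's rho 0.51, 57 members), shorter genes being lower in AID. Over 5768 genes rho was 0.26, and the 1073 genes with coding regions under 600 bases had a median of -0.34. The part of length in the results between the arms was not tested beyond the correction described in the closing section.

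Of the 81 genes of the large subunit, 81 fell in WT at 30 min with a median of -2.41, and 72 fell in AID with a median of -1.36. At 10 min 4 had fallen in WT. Among 17 late maturation factors of the small subunit, 13 had fallen in WT and 9 in AID at 10 min, with medians of -0.70 and -0.71, and 16 in WT and 15 in AID were lower at 30 min. The shares of all genes called lower were 24.6% in WT and 16.6% in AID at 10 min, and 27.5% and 26.6% at 30 min. The largest changes at 30 min in WT were those of RRP12 (-4.55 ± 0.30, adjusted p = 2.27e-09), LTV1 (-4.35 ± 0.19, adjusted p = 4.07e-11) and DIM1 (-2.99 ± 0.17, adjusted p = 3.08e-10). RRP12 and LTV1 act in export and late assembly of the subunit and DIM1 methylates its rRNA.

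A list of genes linked to the control of ribosome production held 13: RAP1, FHL1, IFH1, CRF1, SFP1, HMO1, ABF1, TBF1, SCH9, STB3, UTP22, DOT6 and TOD6. Not all of them act on ribosomal protein genes directly. Of the 13, 2 were lower and 3 higher in WT at 10 min (all genes: 24.6% and 19.7%). At 30 min 6 were lower and 3 higher (all genes: 27.5% and 29.1%). CRF1, a corepressor of ribosomal protein genes, rose at 10 min (2.24 ± 0.28, adjusted p = 8.37e-06), as did the activator SFP1 (1.73 ± 0.32, adjusted p = 0.000377). The level of CRF1 was low, with means of 1.30 CPM in WT at 0 min and 6.08 CPM at 10 min. The mRNA of IFH1, a coactivator, fell (-1.15 ± 0.29, adjusted p = 0.0041). In AID against WT at 0 min 6 of the 13 were higher (all genes: 16.2%) and 0 lower, with a median of 0.73. HMO1, which binds many promoters of ribosomal protein genes, showed the largest of these values (1.20 ± 0.15, adjusted p = 5.79e-05).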

How the data were processed

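The authors deposited unnormalised counts of reads for each gene. The submitters' processing notes name the sacCer3 build, featureCounts 1.5.1, TopHat2 2.1.0 and DESeq2 1.22.2, and the labels' protocols give single-end reads of 50 bases from a stranded mRNA kit. The strand setting, the treatment of reads with several alignments and the annotation are not given in the sources used here, so counts of near-identical pairs are uncertain: 24.91% of the 50-base windows of RPS8A and RPS8B, 27.95% of RPS6A and RPS6B and 53.19% of RPS4A and RPS4B are unique in the genome. The members and gene lists were chosen with earlier results of these data known.

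The main test was that of edgeR 4.0.16 under R 4.3.3 (filter by filterByExpr, TMM scaling, glmQLFit with robust estimation, 1 mean per group over all 17 libraries, 11 contrasts). The SE of a log2 fold change is its size over the square root of F. Depth was 13.9 to 30.4 M counts, and 3 counts, the limit that a count of 0 allows, correspond to 0.0986 to 0.215 CPM, for counting error only. No label says that replicates were separate cultures, so p-values may measure technical spread. Pair balance was tested with diffSpliceDGE on reciprocal best pairs (blastp 2.17.0, at least 40% identity over 70% of the length) of proteins translated from the RefSeq genome. The plan had been to leave this test out if no protein table was given, and none was, so it was added after the files were seen. On simulated counts this test was somewhat liberal, so limma 3.58.1 is given beside it. Genes were named by rule: the 9 single-copy members, the 4 lowest and 4 highest changes per comparison, the 6 highest and 6 lowest levels, the called pairs, and 3 genes of each other list; RPS10A, RPS25A, RPS26A and other members called or lost were named after their values were seen. A member that the rule names is not reported singly here. Alternatives were other scalings, filters, DESeq2 1.42.0, replicate blocks, the compared groups alone, a spline correction for coding length and GC content, summed pairs and leaving out each library; leaving out WT 0 replicates 1 and 3 together was chosen after seeing the data.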

Additional observations from a re-analysis of the deposited data

Results flagged for a closer look

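The test of the difference between the arms' responses to 30 min of salt called 2 members, where 1.00% of all tested genes were called in that direction. These were RPS6A (log2 difference 1.25) and RPS18B (1.03), each a smaller fall in AID. Both calls were lost when most of the single libraries were left out. Groups of 3 or fewer libraries were not searched for single deviating values.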

How the results depend on the processing

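In WT, 54 to 57 members fell at 30 min against 0 or 10 min under every alternative run, and all 33 proteins when pairs were summed. Leaving out 1 library gave 3 to 8 members called for WT 10 against 0 min, 33 to 54 for AID 30 against 10 min, 4 to 19, 4 to 30 and 4 to 21 for AID against WT at 0, 10 and 30 min, 0 to 9 for the difference of the 30 min responses and 1 to 5 for pair balance at 30 min. Without WT 0 replicate 3 the WT change at 10 min had 3 lower and 5 higher members (8 called), and with the DESeq2 Wald test 3 lower and 4 higher (7 called), so its majority reversed. With library size alone, 16 members were called for WT at 10 min, 23 for AID at 10 min, 15 for the arms at 0 min and 22 at 30 min, and from 10 to 30 min in WT RPS27A (0.20, adjusted p = 0.37) and RPS9A (0.81) were reversed. That scaling put the median of all genes at 0.43 in WT and 0.29 in AID for 30 against 0 min, where the members' medians were -1.91 and -1.17. With the GC content and coding length correction the counts were 6 (WT 10 min), 11 (AID 10 min), 18 and 38 (arms at 0 and 10 min) and 4 (difference at 30 min). DESeq2's Wald test gave 17 and 40 for the arms at 0 and 10 min, 1 for the difference at 10 min and 11 at 30 min. With only the groups compared, AID at 10 min had 8. Summed pairs gave 0 at 10 min in each arm, 4 for the arms at 30 min and 0 for the difference at 30 min. That difference was also 0 with DESeq2 size factors, with no filter and with only the groups compared, and 4 with a mean of at least 10 CPM. Without WT 0 replicates 1 and 3 the arms had 2 at 0 min and 30 at 10 min, and the difference had 0. limma called 8, 14 and 13 pairs at 10 min, at 30 min and between the arms. These were 33.3%, 58.3% and 54.2% of the RPS pairs, against 54.6%, 64.5% and 46.9% of all pairs. The share of all genes called under each alternative is not given, here or above, so these counts of members cannot be set against a background. The cause of these changes was not tested. The correlation of deviations from group means ran from -0.74 to 0.64 for libraries with the same title number (40 pairs). It ran from -0.64 to 0.64 for the others (80 pairs). Pairing by number was not seen in these values, but with means of 2 or 3 libraries they cannot exclude it. With the replicate block, the arms at 30 min had 7 members called by title numbers and 8 by description numbers, the difference at 30 min had 0 with each, and pair balance at 30 min had 2.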
